A study of Zea mays with 303 samples.

Results

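The features described here are the rows of a maize single-cell count table whose names begin with GRMZM. They were taken by name alone and made up 0.764% of its 17140 rows: 55 were deep enough to be compared across cells and 76 were not. All of the names begin with GRMZM5G. GRMZM names come from earlier gene sets of the maize reference line B73, and in B73 RefGen_v4 the genes of the numbered chromosomes were given Zm00001d names, which 16854 other rows carry. The gene table used here comes from a later assembly (Zm-B73-REFERENCE-NAM-5.0) and held none of the features as a name or synonym. It gave a GRMZM5G synonym to 1228 genes, none of them plastid or mitochondrial, and its 372 plastid and mitochondrial genes had no GRMZM synonym at all. The features are therefore called by their identifiers, with no gene name, function or position.

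The cells were taken at early meiosis from anthers, the organs that form pollen, of greenhouse-grown plants of the inbred W23 bz2. Cells were fixed in Farmer's solution, freed with wall-digesting enzymes, sorted and made into libraries by a modified CEL-Seq2 protocol, in which a unique molecular identifier (UMI) marks each transcript copy. Each sample is 1 cell, and the library pools are named here by their index: pools 6, 11, 28 and 29 held 55, 78, 79 and 91 cells. No plant, culture, treatment or cell type was labelled, so all cells form 1 group without replicates, no test between pools was possible, and no p-value is given. The labels give no other difference between pools. The cells carried 96 well barcodes, of which 44 occurred in all 4 pools, as each pool reuses the same set. Slopes, correlations and levels by pool or per cell are from the 48, 70, 60 and 79 cells of pools 6, 11, 28 and 29 with at least 500 genes detected, called retained cells, and leave out 46 cells. The ranking of features by UMIs and the comparison of rows with nearly equal counts use all cells. Totals of the retained cells ran from 591 to 9934 UMIs with a median of 2363.

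Besides the genes of the nucleus, a plant cell holds a small genome in its plastids and another in its mitochondria. The plastid genome encodes core proteins of photosystem II (psb genes), subunits of the plastid NADH dehydrogenase-like complex (ndh genes) and the plastid RNA polymerase (rpo genes). Most chloroplast proteins, such as the chlorophyll-binding protein of CAB1 and the Rubisco small subunit of RBCS, are made from nuclear genes. The table held 13 psb, ndh and rpo rows under lower-case symbols, all of them listed as plastid genes in the gene table, and their sum is called the plastid reference. The labelled tissue could be checked against few named markers: CR4, a receptor kinase gene, had 12 UMIs.

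Over all cells, retained or not, the GRMZM features held 32705 of 800166 UMIs, or 4.09% (exact 95% Clopper-Pearson interval 4.04% to 4.13%). Intervals here and below cover counting error only, not the spread between cells, plants or preparations. In the retained cells 31742 of 779559 UMIs were theirs, or 4.07% (4.03% to 4.12%), and the plastid reference had 11662 UMIs. A single cell gave 0.524% at the lowest, 2.90% at the median and 11.1% at the highest. The pools differed: the share was 4.69% (4.59% to 4.78%) in pool 6, 5.16% (5.08% to 5.25%) in pool 11, 2.96% (2.86% to 3.06%) in pool 28 and 2.80% (2.73% to 2.87%) in pool 29. The median cell stood at 3.44%, 4.01%, 2.76% and 2.17% in the same order. Medians were thus also higher in pools 6 and 11, but with smaller gaps to pools 28 and 29 than the sums. The cells of the pools still overlapped widely, with 1.05% to 8.85% in pool 6, 1.46% to 11.1% in pool 11, 0.724% to 6.61% in pool 28 and 0.524% to 8.46% in pool 29.

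A few features carried most of these UMIs, counted here over all cells. GRMZM5G800101 alone had 5744 UMIs, 17.6% of the sum. GRMZM5G815453 followed with 2448 UMIs and GRMZM5G818111 with 2353. The first 8 features held 51.9% and the first 36 held 90.0%. The median feature had 38 UMIs, and 33 features had fewer than 10. The 76 features with fewer than 50 UMIs in the retained cells held 1260 UMIs together, 0.162% of the total. The order is one of UMIs in these libraries and is not scaled by length.

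**Figure D1:**
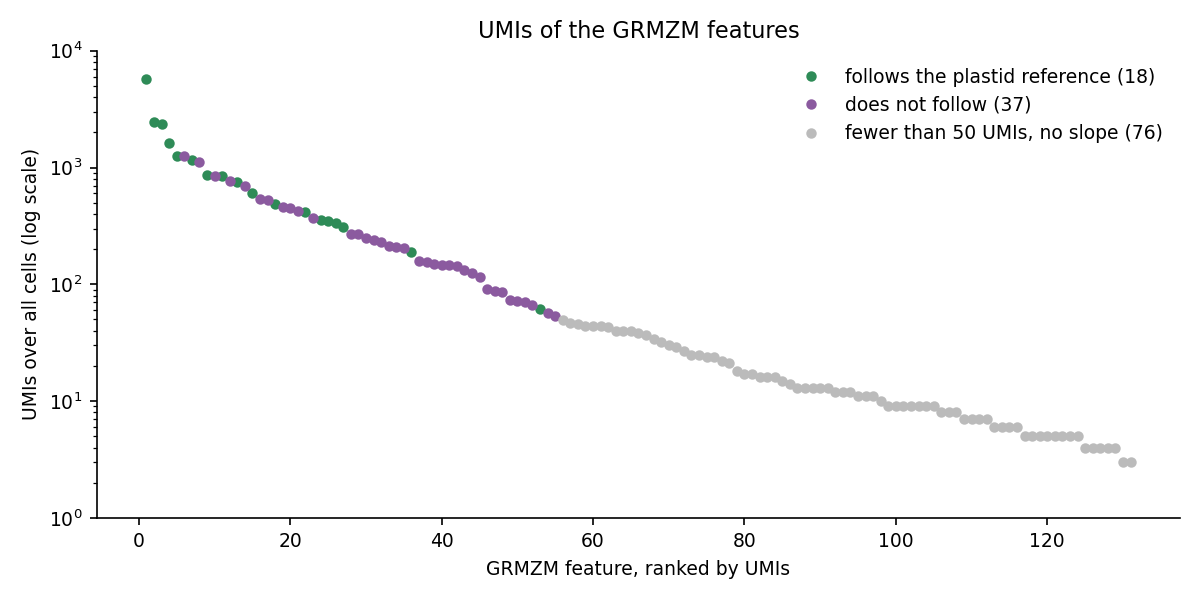
UMIs over all cells (log axis) for the GRMZM features in rank order, 1 point per feature, coloured by whether a feature follows the plastid reference across cells. The most abundant feature, with 5744 UMIs, follows it, while features of both kinds lie side by side further down.

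Each feature with at least 50 UMIs was then set against the plastid reference across cells. The measure is the slope of a Poisson model of its UMIs on the logarithm of the reference share, with a term for the pool. A slope of 1 means that its UMIs grew in proportion to the reference, and a slope of 0 that they were unrelated to it. A feature was said to follow the reference when its slope was at least 0.5 and above 0 within each pool where it had at least 10 UMIs, with at least 2 such pools. The cells are not replicates, so slopes are descriptions of these cells.

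The GRMZM features with at least 50 UMIs fell into separate sets with a wide gap between. Of the 55 features fitted, 18 followed the plastid reference and 37 did not. For comparison, 6.90% of all 3059 features fitted met the same rule, and each of the 13 reference rows met it when set against the other 12 rows. The slopes of the 18 ran from 0.72 to 1.24 with a median of 0.91, those of the reference rows from 0.59 to 1.29 with a median of 1.00. The slopes of the 37 ran from -0.51 to -0.022 with a median of -0.14, close to the median of -0.19 over all features fitted. Just inside the limit lay GRMZM5G800101 at 0.72 and GRMZM5G853305 at 0.77, and just outside it GRMZM5G877040 at -0.022 and GRMZM5G889299 at -0.029. None of the 55 features fitted had a slope between these values and 0.72, though sparser GRMZM features did, as given below. The 18 made up 8.53% of all features that met the rule, and Zm00001d features made up 76.8%. These values come from the contrast that divides the features and are given as its description.

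The summed shares show the same division. The 18 features held 2.50% of UMIs (2.47% to 2.54%), and their sum had a slope of 0.89 on the reference, with 0.89, 0.87, 0.82 and 0.96 within pools 6, 11, 28 and 29. Across the retained cells the Spearman correlation of the 2 shares was 0.83, and 0.76, 0.91, 0.74 and 0.78 within the pools in that order. Both shares come from the same library of a cell and are taken of the same total, and their correlations with that total were 0.20 and 0.22. The 37 features held 1.41% of UMIs (1.38% to 1.43%), with a slope of -0.14 for their sum and a correlation with the reference share of -0.091. Within the pools that correlation was -0.10, -0.26, -0.23 and -0.24. The rule that divided the features used the same reference, so these values describe the sets and are no support for the division.

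**Figure D2:**
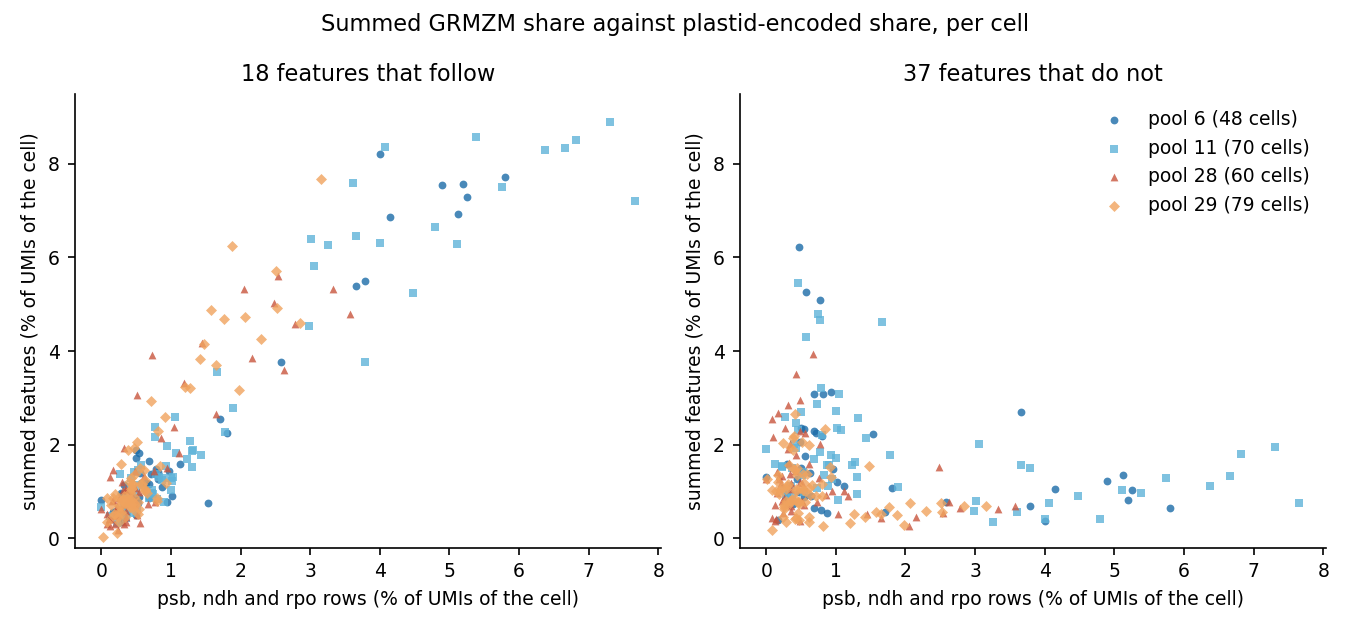
Share of a cell's UMIs from the 18 GRMZM features that follow the plastid reference (left) and the 37 that do not (right), against the share from the psb, ndh and rpo rows, both in percent, 1 point per cell and a colour and shape per pool. The left share climbs to 8.90% with the reference, whereas the right share has its highest value, 6.21%, in a cell with 0.464% of reference UMIs.

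Among the 18 features that follow, the most abundant had the lowest slope. GRMZM5G800101 had a lowest, median and highest level per cell of 1230, 4442 and 24749 UMIs per 1000000 UMIs (CPM) in pool 6, and of 1086, 4895 and 28677 CPM in pool 11. In pool 28 the same values were 0, 3934 and 20026 CPM, and in pool 29 they were 0, 4038 and 18980 CPM. It was seen in every retained cell of pools 6 and 11, in 57 of 60 in pool 28 and in 78 of 79 in pool 29, and the cells of all pools overlapped. Its slope of 0.72 was below that of the RNA polymerase rows, which ran from 0.78 for rpoB to 0.90 for rpoC1. Within pools 6, 11, 28 and 29 its slope was 0.68, 0.76, 0.61 and 0.72. The features most like it across cells were cemA, a plastid envelope membrane protein gene, the photosystem II gene psbC and GRMZM5G818111, each with a rank correlation of 0.77 over the retained cells.

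GRMZM5G818111 and GRMZM5G827951 had slopes within the range of the rpo rows, at 0.82 and 0.85, and GRMZM5G853305 lay just below it at 0.77. GRMZM5G818111 stood at 3354 CPM in pool 6, 4843 CPM in pool 11, 1218 CPM in pool 28 and 1129 CPM in pool 29. GRMZM5G827951 stood at 1664, 2142, 913 and 670 CPM in the same pools. For both, the intervals of pools 6 and 11, which cover counting error only, lay wholly above those of pools 28 and 29. Single cells of the pools overlapped. Those of GRMZM5G827951 ran from 0 to 5738 CPM in pool 6 and from 0 to 6676 CPM in pool 28.

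Other features had steeper slopes. The photosystem II rows ran from 1.01 for psbA to 1.19 for psbC, but the ndh rows, from 0.59 to 1.29, span the slopes of all 18 followers. A slope therefore does not place a feature with 1 kind of plastid gene. GRMZM5G800780 had the largest slope, 1.24, with 1.37, 1.17, 1.14 and 1.24 within pools 6, 11, 28 and 29. GRMZM5G836994 came next at 1.17 and stood at 2398 CPM (exact Poisson interval 2184 to 2629) in pool 6, 2027 CPM (1857 to 2208) in pool 11, 376 CPM on 42 UMIs in pool 28 and 941 CPM (817 to 1079) in pool 29. Its level in pool 6 was 6.38 times that in pool 28, the third largest range between pools among the 55 features. Close to a slope of 1 lay GRMZM5G801958 (1.02), GRMZM5G800096 (1.01), GRMZM5G800980 (1.00) and GRMZM5G874448 (0.98), with GRMZM5G855343 at 0.91. In pool 28, however, the slope of GRMZM5G874448 was 0.40, on 31 UMIs.

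GRMZM5G884960 followed the reference on thin data. It had 57 UMIs in 39 cells, of which 49.1% lay in its 10 richest cells, and its slope of 1.01 combined 2.64 in pool 6 with 0.66 in pool 11 and 0.56 in pool 29. Its rank correlation with the reference was -0.056, the only value below 0 in the set. The other 17 features had rank correlations from 0.37 to 0.79. These are of shares centred on pool means, and with many cells at 0 their ranks can still carry differences between pools. GRMZM5G815453 had 0.37 in this way, but 0.57 to 0.70 within pools.

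GRMZM5G815453 differed from the rest of the set in its order of pools. It had a lowest, median and highest level per cell of 0, 344 and 9633 CPM in pool 6, and of 0, 439 and 13609 CPM in pool 11. In pool 28 these were 0, 1115 and 20635 CPM, and in pool 29 they were 0, 1697 and 28343 CPM. Summed over cells it stood at 1947 CPM (1754 to 2156) and 1954 CPM (1787 to 2131) in pools 6 and 11, and at 3286 CPM (2959 to 3640) and 5206 CPM (4907 to 5518) in pools 28 and 29. It was the only one of the 18 that was higher in both pools 28 and 29 than in both pools 6 and 11, a pattern shown by 36.2% of all features fitted. The other 17, and all 13 reference rows, were higher in both pools 6 and 11, a pattern shown by 16.8% of all features fitted. For GRMZM5G866064 this was nearly a tie, at 373 CPM in pool 6 and 372 CPM in pool 29. GRMZM5G884960 had only 19, 19, 5 and 14 UMIs in pools 6, 11, 28 and 29. Outside the reference, plastid symbols were mixed: cemA and atpI had the order of the 17, but rps16 (1368 CPM) and psaC (230 CPM) were highest in pool 29. The pool and the anthers or sorts that went into it cannot be told apart.

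CAB1 was likewise higher in both pools 28 and 29. It stood at 478, 882, 1397 and 1850 CPM in pools 6, 11, 28 and 29. Across cells the rank correlation of GRMZM5G815453 was 0.65 with CAB1 and 0.45 with the plastid reference. For GRMZM5G800101 these correlations were 0.51 and 0.74. Within pools GRMZM5G815453 had slopes of 1.31, 0.91, 1.04 and 1.18 on the reference. Its correlation with the reference there was 0.57 to 0.70, above the pooled value, and that with CAB1 was 0.63 to 0.76. Its correlations with CAB1 and with the reference were thus closer to each other within pools than across them.

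The count of GRMZM5G815453 was also nearly that of another row of the table. Over all cells Zm00001d000279 had 2510 UMIs against its 2448, and 2446 of the 2512 UMIs that the higher of the rows gave per cell, 97.4%, were matched in the other. The sources used here do not say how the authors counted a read that matches more than 1 feature, so the UMIs of these rows cannot be told apart. Next in likeness came Zm00001d045698 and Zm00001d006402, with rank correlations of 0.95 and 0.90. The gene table carries no Zm00001d names, so these rows have no gene name here.

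**Figure D3:**
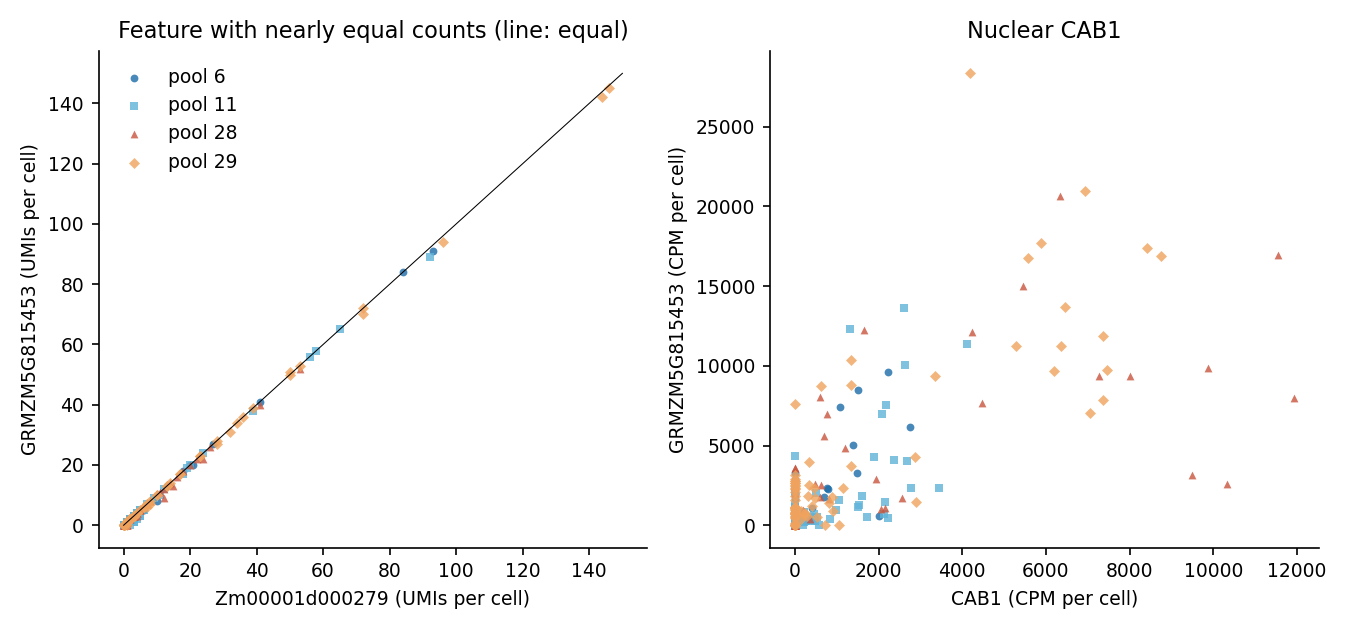
UMIs of GRMZM5G815453 per cell against those of Zm00001d000279 (left, with the line of equal counts) and its CPM per cell against that of nuclear CAB1 (right), 1 point per cell and a colour and shape per pool. The left points lie along the line up to the highest cell. On the right the 8 cells with the most CAB1 come from pools 28 and 29.

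Nearly equal counts over all cells occurred in 6 other pairs, taking a pair as such when a share of at least 0.8 of the larger UMIs per cell was matched, a limit set after the values were seen. GRMZM5G816274 and GRMZM5G898772 were equal in every cell, with 44 UMIs each. GRMZM5G838963 and GRMZM5G859187 shared 99.3%. GRMZM5G844605 and GRMZM5G849018 had 54 and 57 UMIs, GRMZM5G898442 and GRMZM5G898466 had 46 and 44, and GRMZM5G810298 and GRMZM5G876106 had 345 and 352, of which 89.9% were matched. GRMZM5G856027, which does not follow the reference, shared 96.4% with Zm00001d046260. These pairs are not independent features, and the 5 pairs within the GRMZM rows lay each on 1 side of the rule or were both too sparse for a slope. The next most alike pair of rows matched 77.8%.

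A measure that the rule did not use, the slope on the summed nuclear photosynthesis rows CAB1, RBCS, PSAH (a photosystem I subunit) and RCA1 (Rubisco activase), separated the same sets. All 18 followers had slopes above 0 on it, from 0.43 to 0.80, and all 37 others had slopes below 0, from -0.45 to -0.06. The median over all 3059 features fitted was -0.12, with 645 slopes above 0 and 2414 below, so slopes below 0 were common in the table. With the same limit of 0.5, met by 5.39% of all features, 14 of the 18 followed the nuclear rows. The 4 below it were GRMZM5G800101 (0.46), GRMZM5G818111 (0.49), GRMZM5G853305 (0.45) and GRMZM5G899892 (0.43). GRMZM5G815453 (0.80) and GRMZM5G836994 (0.80) had the steepest slopes on them. Nuclear and plastid rows were themselves linked in these cells. On the plastid reference CAB1 had a slope of 1.33, RBCS of 1.30, PSAH of 1.19 and RCA1, on 11 UMIs, of 0.86. The measure is thus not independent of the rule and is no support for the division.

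The 37 features that do not follow the plastid reference varied together. Each was set against the sum of the other 36, and 35 of 37 had a slope of at least 0.5 that was above 0 in each pool fitted, against 4.84% of all features. With a rank correlation of at least 0.3 in place of the slope the count was 20 of 38. Their slopes on that sum ran from 0.36 to 1.39 with a median of 0.94, whereas the 18 followers ran from -0.96 to -0.08 and the reference rows from -0.78 to -0.17. The rule had chosen the 37 only by a low slope on the plastid rows, which most features of the table share. The 2 exceptions were GRMZM5G844605 and GRMZM5G849018, the nearly equal pair, with slopes of 0.36 each. Pairs of the 28 features with at least 100 UMIs had a median rank correlation of 0.17, above 0 in 371 of 378 pairs. All pairs of the 1255 features of that depth had a median of 0.038, with 63.0% of pairs above 0. Pairs of a follower and a feature of the second set had a median of -0.045. Among the 17 followers of that depth the median was 0.47. With UMIs this sparse a single correlation near 0.17 is weak, and the slopes on the sum carry the comparison.

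**Figure D4:**
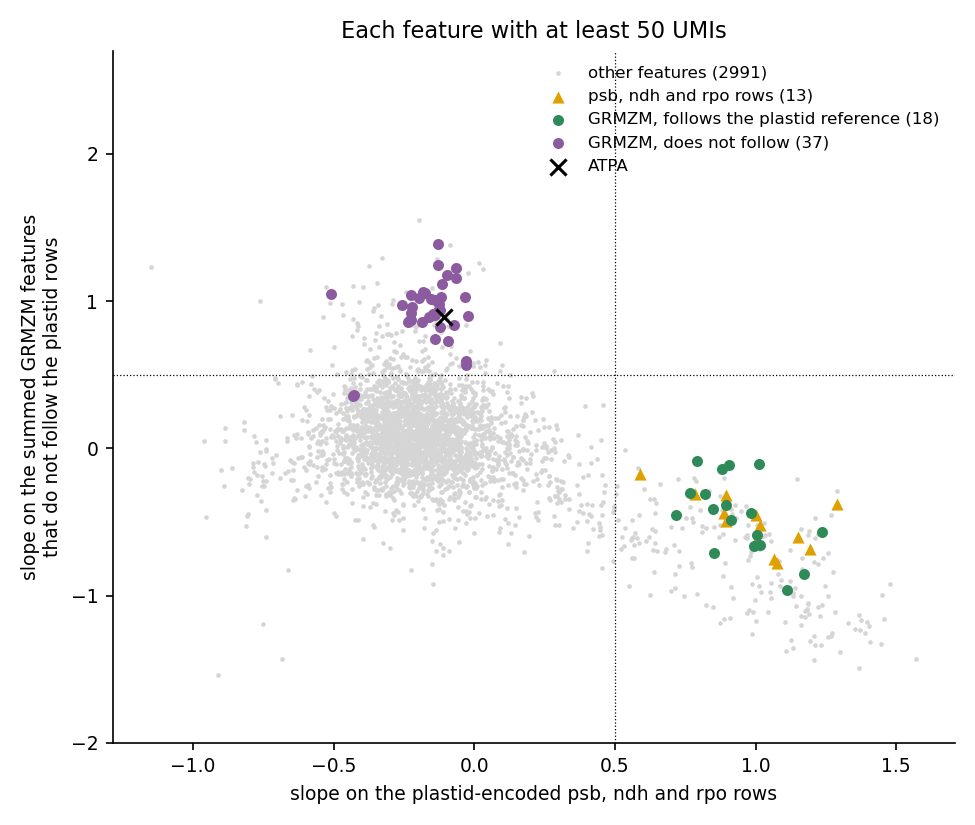
Slope of each feature with at least 50 UMIs on the plastid reference (horizontal) and on the summed GRMZM features that do not follow it (vertical), 1 point per feature, with dotted lines at 0.5. The 18 followers lie among the psb, ndh and rpo rows at the lower right, 35 of the 37 others lie above the horizontal line together with ATPA, and most other features lie below both lines.

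Among the 3 most abundant features of the second set, the 10 richest cells held 24.5% of the UMIs of GRMZM5G861791, 20.4% of those of GRMZM5G867512 and 23.2% of those of GRMZM5G804358. For the leading followers GRMZM5G800101 and GRMZM5G815453 these shares were 26.6% and 38.3%. GRMZM5G861791, its most abundant feature with 1239 UMIs in the retained cells, had a lowest, median and highest level per cell of 0, 1658 and 7512 CPM in pool 6, of 0, 1871 and 11217 CPM in pool 11, of 0, 1020 and 9315 CPM in pool 28 and of 0, 648 and 2290 CPM in pool 29. The pools overlapped at the low end, and the highest cells of pool 29 stayed below those of the other pools. Its slope was -0.12 on the plastid reference and 0.94 on the sum of the others, with 0.94, 0.92, 1.11 and 0.81 within pools 6, 11, 28 and 29. The features most like it were Zm00001d028198, GRMZM5G856027 and Zm00001d046260, with rank correlations of 0.55, 0.51 and 0.48.

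GRMZM5G867512 ranged from 0 to 6829 CPM per cell with a median of 1076 CPM, and stood at 1795, 1480, 1334 and 964 CPM in pools 6, 11, 28 and 29. GRMZM5G804358 stood at 1538, 1329, 770 and 496 CPM. Their slopes on the sum of the others were 0.86 and 0.89. The lowest slopes on the plastid reference belonged to sparse features: GRMZM5G816772 at -0.51 on 68 UMIs, GRMZM5G849018 and GRMZM5G844605 at -0.43 each, GRMZM5G894376 at -0.26 and GRMZM5G839924 at -0.23. Of these, GRMZM5G816772 had a slope of 1.05, GRMZM5G894376 of 0.97 and GRMZM5G839924 of 0.86 on the sum of the others. At the other end GRMZM5G877040 and GRMZM5G889299 had slopes of 0.90 and 0.59 on that sum.

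Pools 6 and 11 were both above pools 28 and 29 for 23 of the 37 features, and below for 5. The same patterns were shown by 16.8% and 36.2% of all features fitted. The widest range between pools among the 55 fitted features was that of GRMZM5G897755, with 99.7 CPM in pool 6, 165.7 CPM in pool 11, 26.9 CPM in pool 28 and 18.4 CPM in pool 29, on 19, 43, 3 and 4 UMIs. Next came GRMZM5G810298 of the first set, whose level of 817 CPM in pool 11 was 6.84 times that in pool 29. GRMZM5G845024 was ordered otherwise, at 1002 and 636 CPM in pools 6 and 11 and 1200 and 1152 CPM in pools 28 and 29. Its interval in pool 6 (865 to 1155 CPM) overlapped those of pools 28 (1005 to 1421) and 29 (1014 to 1304). The median cell had 1064, 437, 1142 and 984 CPM of it in pools 6, 11, 28 and 29. Summed, the 37 features held 1.63% (1.58% to 1.69%), 1.71% (1.66% to 1.76%), 1.32% (1.25% to 1.38%) and 0.889% (0.850% to 0.930%) of UMIs in pools 6, 11, 28 and 29. The 18 followers held 2.84%, 3.24%, 1.51% and 1.84%. The lowest pool was therefore pool 29 for one set and pool 28 for the other.

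**Figure D5:**
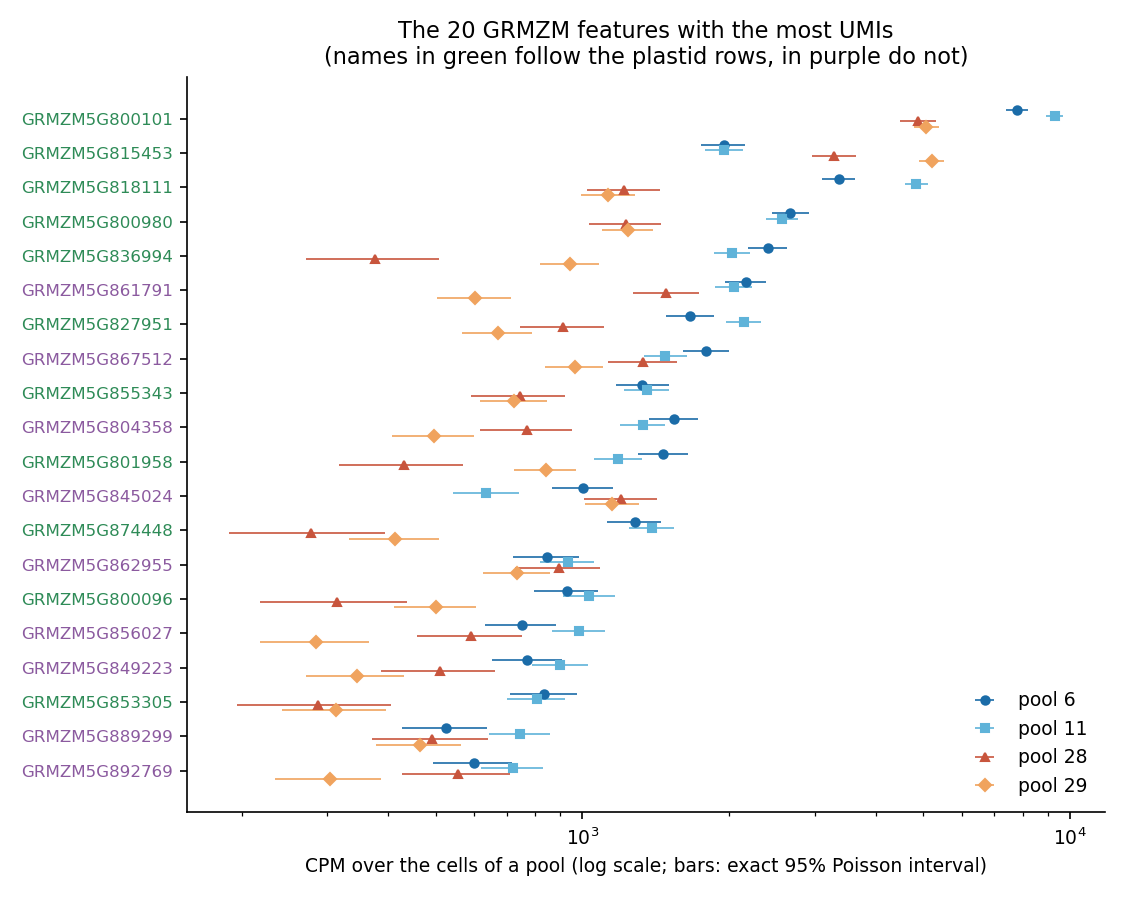
Level of the 20 most abundant GRMZM features in each pool, in CPM over its cells (log axis), with exact 95% Poisson intervals for counting error; names in green follow the plastid reference and names in purple do not. GRMZM5G815453 and GRMZM5G845024 are the features here whose levels are higher in both pools 28 and 29 than in both pools 6 and 11. For GRMZM5G845024 the interval of pool 6 overlaps those of pools 28 and 29.

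The summed shares of the sets also differed by barcode range. Cells with barcodes 1 to 48 gave 2.65% of UMIs to the followers and 1.23% (1.20% to 1.26%) to the 37 others. Cells with barcodes 49 to 96 gave 2.26% and 1.70% (1.66% to 1.75%). The part of barcode position in the levels was not tested.

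A named row moved with the second set. ATPA, whose symbol is that of an ATP synthase alpha subunit, had 2231 UMIs, a slope of -0.11 on the plastid reference and 0.89 on the summed 37 features, and a rank correlation of 0.64 with that sum. The gene table lists ATPA as a synonym of a nuclear gene and atpA as a plastid gene, and which gene the row counts was not settled here. Apart from the GRMZM and reference rows, 64 rows with a symbol had at least 50 UMIs, and ATPA and TIF were the 2 among them that met the rule on the summed 37 features. TIF, listed in the gene table as a synonym of a nuclear gene, had a slope of 0.66 but a rank correlation of only 0.20 with that sum. The chalcone synthase gene C2 had a slope of -0.26 on the summed 37 features and -0.23 on the plastid reference. GAPC3, a glycolytic enzyme gene, had -0.26 and -0.75.

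Below the limit of 50 UMIs, 23 GRMZM features had 20 to 49 UMIs. GRMZM5G826672, GRMZM5G898466 and GRMZM5G898442 met the rule on the plastid reference, with slopes of 0.71, 0.56 and 0.51, and the latter pair has nearly equal counts. These slopes lie in the gap that the deeper features left empty, as does that of GRMZM5G857320 at 0.20. Of all features with 20 to 49 UMIs 1.31% met that rule. On the summed 37 features 10 of the 23 met the same rule, against 3.56% of all features of that depth, and 20 had slopes above 0, against 57.9%. The 10 include GRMZM5G816274 and GRMZM5G898772, whose counts are equal. All 76 sparse features summed to 1260 UMIs, with a slope of -0.080 on the plastid reference and 0.77 on the summed 37 features, the latter with 0.69, 0.94, 0.64 and 0.66 within pools 6, 11, 28 and 29.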

How the data were processed

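Transcripts of 303 single maize anther cells had been counted by UMI. The authors deposited 1 table of raw UMI counts per feature and cell, with no normalization. The submitters' processing notes name HISAT2 and the genome build B73 RefGen_v4. The annotation release, the UMI counter, the handling of reads with several matches and any cell filter are not given in the sources used here. Deposited counts were used as they stand. The GRMZM features number 131 of 17140. Cells with at least 500 genes detected were kept (257 of 303), and no doublet caller was run. CPM scales a sum to 1000000 UMIs. Slopes are from Poisson models with pool terms, offset by the UMIs of rows outside the GRMZM and reference sets, with 0.5 added to the reference count. The code (Python 3.11.15, numpy 2.4.6, pandas 2.3.3, scipy 1.17.1) was tested on simulated data. Rank correlations are Spearman's, of shares of total UMIs. Those between a feature and the reference or another feature are of shares centred by pool. The correlations of summed shares, and of GRMZM5G815453 and GRMZM5G800101 with CAB1 and the reference in the paragraph on CAB1, are not centred. Centring subtracts the mean of a pool, so ranks of skewed shares can still carry differences between pools. Features named are the 10 with most UMIs, the 10 largest and 5 lowest slopes, 2 on either side of the limit and the 3 with the widest range between pools; others were named after their values were seen. The features and rules were chosen with earlier results of these data known. 1 marker gene is not reported here.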

Additional observations from a re-analysis of the deposited data

Results flagged for a closer look

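The 46 cells with fewer than 500 genes detected entered the all-cell share, the ranking and the nearly equal pairs but no slope, correlation or pool level of the report. GRMZM features gave 963 of their 20607 UMIs, 4.67% (4.39% to 4.97%), a signal in cells outside the main comparisons. The share per cell ran from 0.731% to 15.4% with a median of 3.06%. The 8 such cells of pool 11 gave 8.04% (7.32% to 8.80%), against 3.21% to 4.38% in the other pools. The pool 11 cells were uneven: barcodes 42, 67, 68 and 75 stood at 9.76%, 15.4%, 10.6% and 9.91%, the others at 0.731% to 4.16%. The interval does not cover this spread between cells.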

How the results depend on the processing

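The count of 18 followers stayed at 17 to 18 under every alternative but the minimum of 20 UMIs, which gave 21, and the 17 or 18 were among the main 18 each time. Leaving out 1 pool gave 17 to 18 followers and 31 to 35 features that move with the others of the second set. With a rank correlation of at least 0.3 in place of the slope, 20 of 38 moved with the others, and GRMZM5G884960 turned to -0.056. Apart from GRMZM5G800101 at a slope limit of 0.75, the other values of the 25 named features kept their side of the limit in use wherever a value could be had. The summed GRMZM share was 4.14% with at least 1000 genes per cell, 3.36% without GRMZM5G800101, 4.31% over the UMIs of other features, 4.02% and 4.16% with barcodes 1 to 48 and 49 to 96, 3.99% with 1 of each nearly equal pair left out, and 3.53% to 4.56% with 1 pool left out. The followers' share was 2.55%, 2.64%, 2.26% and 2.46% under the settings for genes, both barcode ranges and pairs, 1.79% at a slope limit of 0.75, which drops GRMZM5G800101, and 2.13% to 2.75% with 1 pool left out. The barcode and pair settings were chosen after seeing the data. No row matched the mitochondrial symbols searched for, so that comparison was not run. No paired analysis was possible because the cells form 1 group. Depth limits slopes to 55 features.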
